A study of Xenopus laevis with 72 samples.

Results

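crabp2.L and crabp2.S are the homoeologs of the gene for cellular retinoic acid-binding protein 2 in the frog Xenopus laevis, that is, the copies of 1 ancestral gene carried on its L and S subgenomes. They were taken by their symbols (gene IDs 378522 for crabp2.L and 108700362 for crabp2.S) and make up 2 of the 23 target genes measured by high-throughput quantitative PCR. Each had a value in all 72 samples. Wild-type whole embryos were treated for 2 h, from stage 9.5 (late blastula) to stage 10.25 (early gastrula). They received 10 nM retinoic acid (RA), 50 uM 4-diethylaminobenzaldehyde (DEAB, an inhibitor of the enzymes that make RA), or neither (control). The compounds were then washed out, and recovery was sampled at 4 times (0, 1.5, 3 and 4.5 h). Each of the resulting 12 groups held 6 samples, with 1 per clutch, and the clutches are named G to L. A clutch was the progeny of a single female in a single fertilization, and several sibling embryos were pooled per sample, so that the differences between clutches hold the spread between females as well as that of the assay. Both drug stocks were made in DMSO per the methods, and whether controls received DMSO is not given in the labels.

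CRABP2 binds RA in the cytoplasm and, in mammalian cells, carries it to the nuclear RA receptors. Retinol enters cells through STRA6 and is oxidized to retinaldehyde by retinol dehydrogenases such as RDH10 and on to RA by the ALDH1A enzymes, while CYP26 enzymes degrade RA. In the frog gastrula RA patterns the head-to-tail axis, with Hox genes among its targets. In the RefSeq gene table of X. laevis, crabp2.L lies between isg20l2.L and nes.L, and crabp2.S between isg20l2.S and dnaja4.2.S with nes.S next to that, so that the neighbourhoods of the homoeologs share isg20l2 and nes.

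Levels are given as log2 relative expression, the Ct (threshold cycle, lower with more transcript) of the reference gene gapdh minus that of the gene, with 0 at the median of the gene over the 72 samples. A difference of 1 stands for a doubling if amplification was perfect. Over all samples Ct ran from 10.04 to 27.41, with crabp2.L between 11.53 and 19.30 (median 14.90) and crabp2.S between 13.89 and 25.07 (median 18.30). How many template molecules a Ct stands for is not known, and precision rests on the 6 clutches. In whole embryos more cells with the transcript and more transcript per cell cannot be told apart.

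Both homoeologs rose steeply during recovery in every treatment. On average crabp2.S rose further than crabp2.L in RA and in control embryos, though the control call was lost without clutch H. In DEAB embryos that difference did not pass its test. It did without the 0 h DEAB sample of clutch K, but that sample was left out with its value known. A Dixon check for samples that stand apart flagged 0 in 36 groups of 6. DEAB and control embryos did not differ at the threshold in how much further crabp2.S rose. In RA embryos crabp2.L was between -5.07 and -2.15 (median -3.61) at 0 h, and between 0.41 and 3.08 (median 2.07) at 4.5 h. In DEAB embryos crabp2.L was between -5.51 and -2.46 (median -4.76) at 0 h, and between 0.76 and 2.80 (median 1.83) at 4.5 h. In control embryos it was between -5.44 and -3.17 (median -4.33) at 0 h, and between 0.17 and 3.18 (median 1.57) at 4.5 h. Within each treatment the lowest 4.5 h sample was thus above the highest 0 h sample, and the treatments overlapped at both ends of the period.

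For crabp2.S the RA samples lay between -6.16 and -1.86 (median -4.90) at 0 h, and between 2.65 and 3.42 (median 3.23) at 4.5 h. The DEAB samples lay between -6.27 and -0.075 (median -4.62) at 0 h, and between 2.69 and 3.74 (median 3.16) at 4.5 h. The control samples lay between -7.22 and -2.05 (median -5.82) at 0 h, and between 1.62 and 4.81 (median 2.90) at 4.5 h. Again no 4.5 h sample overlapped with a 0 h sample of its treatment, and the spread was widest at 0 h, where the SD of a group was 1.55 to 2.18, against 0.29 to 1.08 at 4.5 h.

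**Figure D1:**
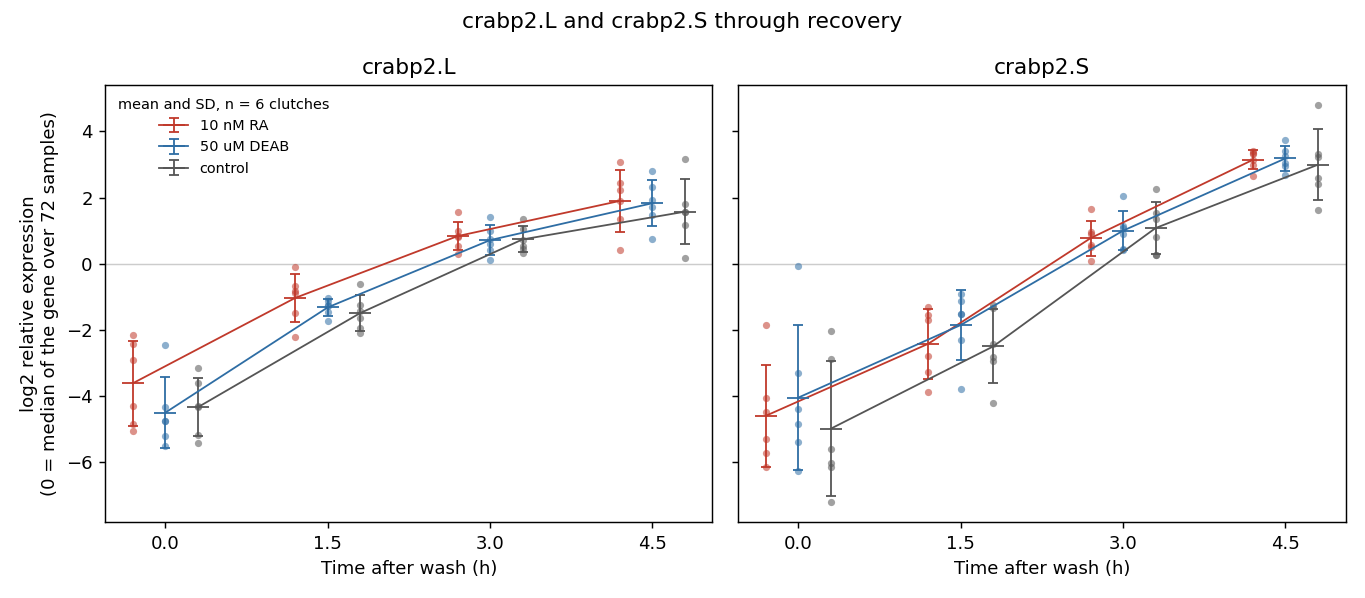
log2 relative expression of crabp2.L (left) and crabp2.S (right) against time after the wash in hours, for 10 nM RA, 50 uM DEAB and control embryos. Points are samples, and bars show the mean and SD of 6 clutches; both genes rose at each step of the means, and the treatments overlapped at every time.

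The rises from 0 to 4.5 h were tested with limma across all 23 target genes, with clutch as a block and Benjamini-Hochberg adjustment over the genes of a contrast, at a threshold of 0.05. In RA embryos crabp2.L rose by 5.51 (SE 0.42, adjusted p = 3.19e-18) and crabp2.S by 7.74 (SE 0.60, adjusted p = 4.33e-18), where 87% of the target genes were called higher. In DEAB embryos crabp2.L rose by 6.33 (SE 0.42, adjusted p = 8.33e-21) and crabp2.S by 7.23 (SE 0.60, adjusted p = 6.52e-17), with 91.3% of the target genes called higher. In control embryos crabp2.L rose by 5.91 (SE 0.42, adjusted p = 2.85e-19) and crabp2.S by 7.98 (SE 0.60, adjusted p = 1.43e-18), with 82.6% called higher. Being called was thus usual for this panel. It is in the size of the rise that the homoeologs stood high, since the median change of the 23 genes was 2.85 in RA, 3.83 in DEAB and 4.09 in control embryos. crabp2.S had the largest rise of the panel in RA and in control embryos and the 3rd largest in DEAB embryos, and crabp2.L ranked 6, 5 and 5 in RA, DEAB and control embryos. On a linear scale, if amplification was perfect, the control rise corresponded to 60.3-fold for crabp2.L (95% interval 33.6 to 108) and 252-fold for crabp2.S (110 to 579). These SEs, p-values and intervals rest on a spread pooled over all 12 groups, not on the spread of each rise over the clutches. Over the clutches the log2 control rise ran from 3.33 to 8.61 (SD 1.75) for crabp2.L and from 5.26 to 12.02 (SD 2.53) for crabp2.S. The crabp2.S rise started in control embryos from a 0 h Ct of 20.11 to 25.07 (median 22.82). Clutch H held both the 25.07, the highest Ct of crabp2.S, and the rise of 12.02.

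These changes are relative to gapdh, whose own Ct was higher at 4.5 h than at 0 h by 1.63 ± 1.53 cycles (SD, n = 6) in RA, 1.27 ± 1.38 in DEAB and 1.29 ± 1.17 in control embryos, and higher in 5 of 6 clutches in each (exact two-sided sign-flip tests over the clutches, p = 0.0625, 0.09375 and 0.0625). With no reference gene, Ct is not corrected for the amount of cDNA in a sample. On that scale the median rise of the panel was 1.23 in RA, 2.56 in DEAB and 2.80 in control embryos. The rise of crabp2.L was then 3.89, 5.07 and 4.62 and that of crabp2.S 6.12, 5.96 and 6.68, in the same order of treatments. Both stayed called. The ranks of the homoeologs and the difference between them do not depend on gapdh, which enters every gene of a sample alike.

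Between these ends crabp2.L was, at 1.5 h, between -2.22 and -0.11 (median -0.86) in RA, -1.74 and -1.05 (median -1.27) in DEAB and -2.10 and -0.61 (median -1.54) in control embryos. At 3 h it was between 0.30 and 1.56 (median 0.82), 0.11 and 1.43 (median 0.68), and 0.34 and 1.35 (median 0.62) in the same treatments. crabp2.S was at 1.5 h between -3.89 and -1.30 (median -2.25) in RA, -3.78 and -0.92 (median -1.51) in DEAB and -4.23 and -1.25 (median -2.63) in control embryos. No sample of either homoeolog at 3 h was as low as any at 1.5 h, since crabp2.S at 3 h was between 0.08 and 1.65 (median 0.74) in RA, 0.42 and 2.04 (median 0.99) in DEAB and 0.26 and 2.27 (median 1.08) in control embryos.

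In the first step, from 0 to 1.5 h, crabp2.L rose by 2.58 in RA, 3.18 in DEAB and 2.85 in control embryos, in 6 of 6 clutches each (SE 0.42, adjusted p = 3.82e-07, 3.86e-09 and 8.26e-08). crabp2.S rose in this step by 2.18 in RA, 2.19 in DEAB and 2.49 in control embryos (SE 0.60, adjusted p = 0.00103, 0.00123 and 4.12e-04), in 6, 5 and 6 of 6 clutches. The mean of the other target genes, which holds genes that rose in this step, was also used as reference. The crabp2.S step was then 0.83 in RA (adjusted p = 0.165) and 1.12 in DEAB embryos (adjusted p = 0.0541). Relative to gapdh but with only the samples compared, the DEAB call was lost (adjusted p = 0.0856). Among all target genes 69.6%, 65.2% and 47.8% were called higher in RA, DEAB and control embryos in this step.

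From 1.5 to 3 h crabp2.L rose by 1.87 in RA, 2.03 in DEAB and 2.23 in control embryos (adjusted p = 2.32e-04, 4.75e-05 and 6.39e-06). crabp2.S rose by 3.19 in RA, 2.85 in DEAB and 3.58 in control embryos (adjusted p = 3.74e-05, 4.91e-05 and 6.69e-07). Both rose in 6 of 6 clutches in each treatment, while 43.5%, 69.6% and 69.6% of all target genes were called higher. The mean of the other target genes, which here too holds genes that rose, served as another reference. The crabp2.L step was then 0.81 in DEAB (adjusted p = 0.1) and 0.91 in control embryos (adjusted p = 0.0521), and neither passed. In RA and in control embryos the step of crabp2.S was the largest of the 23 genes. Set against each other, the L minus S difference of this step was -1.32 in RA, -0.82 in DEAB and -1.35 in control embryos, below 0 in 6 of 6 clutches each, and did not pass (adjusted p over the 5 homoeolog pairs = 0.159, 0.298 and 0.143). With only the samples compared all 3 passed (adjusted p = 0.0427, 0.00278 and 0.0248).

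From 3 to 4.5 h crabp2.S rose by 2.37 in RA, 2.19 in DEAB and 1.92 in control embryos (adjusted p = 0.00118, 0.0023 and 0.0101), in 6 of 6 clutches each. crabp2.L rose by 1.06 in RA embryos, in 5 of 6 clutches (adjusted p = 0.0325), and by 1.12 in DEAB embryos, in 6 of 6 (adjusted p = 0.0236). In control embryos its difference was 0.84 and did not pass (95% interval -0.004 to 1.68, adjusted p = 0.118), with 4 clutches higher and clutches H and K lower at 4.5 h. The called shares of the panel in this step were 47.8% in RA, 43.5% in DEAB and 30.4% in control embryos. Without a reference gene, and so with cDNA input uncorrected, the RA step of crabp2.L was 0.72 (adjusted p = 0.30), so that its call depended on the use of gapdh. It was also lost without clutch G, I, J or K (0.85 to 1.36 over the clutches left out, adjusted p up to 0.126), as was the DEAB call without clutch K or L (adjusted p up to 0.0636), while the control difference passed without clutch K (1.19, adjusted p = 0.03).

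The order of the 12 group means was one of time before treatment. For crabp2.L the means went from -4.50 (DEAB), -4.34 (control) and -3.61 (RA) at 0 h through -1.49 (control), -1.32 (DEAB) and -1.03 (RA) at 1.5 h and 0.71 (DEAB), 0.74 (control) and 0.84 (RA) at 3 h to 1.57 (control), 1.83 (DEAB) and 1.90 (RA) at 4.5 h. The ranges of neighbouring groups in this order overlapped except between RA at 0 h and control at 1.5 h, and between RA at 1.5 h and DEAB at 3 h. For crabp2.S the means were -4.99 (control), -4.60 (RA) and -4.05 (DEAB) at 0 h, -2.50 (control), -2.42 (RA) and -1.85 (DEAB) at 1.5 h, 0.77 (RA), 1.0 (DEAB) and 1.08 (control) at 3 h, and 2.99 (control), 3.14 (RA) and 3.19 (DEAB) at 4.5 h. Here the ranges of neighbours were apart only between DEAB at 1.5 h and RA at 3 h.

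The next question was whether a pulse of RA or of DEAB changed either homoeolog. Neither passed the test against control embryos at any time. At the end of the RA pulse (0 h) crabp2.L differed from control by 0.73 (95% interval -0.12 to 1.57, adjusted p = 0.229), higher in 5 of 6 clutches, and crabp2.S by 0.39 (-0.81 to 1.59, adjusted p = 0.699), higher in 3 of 6. At 1.5, 3 and 4.5 h the RA minus control difference of crabp2.L was 0.46, 0.10 and 0.33, and that of crabp2.S was 0.08, -0.31 and 0.15 (adjusted p between 0.538 and 0.993). RA moved 26.1% of the target genes at 0 h and 39.1% at 1.5 h, then 17.4% at 3 h, all of them higher in RA embryos, and 0% at 4.5 h.

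Averaged over the 4 times, crabp2.L differed from control by 0.40 in RA embryos (95% interval -0.02 to 0.82, adjusted p = 0.127), with 5 of 6 clutches higher (two-sided exact sign-flip p = 0.0625). The difference of crabp2.S was 0.08 (-0.52 to 0.68, adjusted p = 0.96), higher in 3 of 6. Of the 23 target genes 39.1% were called for this average, and the median difference was 0.37, so that crabp2.L lay near the middle of the panel, at rank 11, and crabp2.S at rank 16. The intervals leave room for a rise of crabp2.L up to 1.77-fold and of crabp2.S up to 1.60-fold. With samples of the same clutch and time blocked together, the crabp2.L average passed (adjusted p = 0.0404). With the mean of the other target genes as reference, a mean that itself holds the genes RA raised, it was -0.25 and that of crabp2.S was -0.57 (adjusted p = 0.0327). With this reference 18 of the 23 genes were called for that average.

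In DEAB embryos the difference of crabp2.L from control was -0.16 at 0 h and 0.17 at 1.5 h, then -0.02 at 3 h and 0.26 at 4.5 h. For crabp2.S the differences were 0.94, 0.65, -0.08 and 0.19 in the same order. At 0 h the interval of crabp2.S ran from -0.26 to 2.14 (adjusted p = 0.649), with 5 of 6 clutches higher than control. Its mean over the 4 times was 0.43 (-0.17 to 1.02, adjusted p = 0.689), higher in 5 of 6 clutches (two-sided exact sign-flip p = 0.0625) and the largest of the 23 genes, and that of crabp2.L was 0.06 (-0.36 to 0.48, adjusted p = 0.859), higher in 3 of 6. With limma 0% of the target genes were called for DEAB minus control at 0, 1.5, 3 or 4.5 h or in their mean. At an unadjusted p under 0.05 there were 2, 0, 0 and 0 genes at these times and 1 in the mean, none of them a crabp2 homoeolog.

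**Figure D2:**
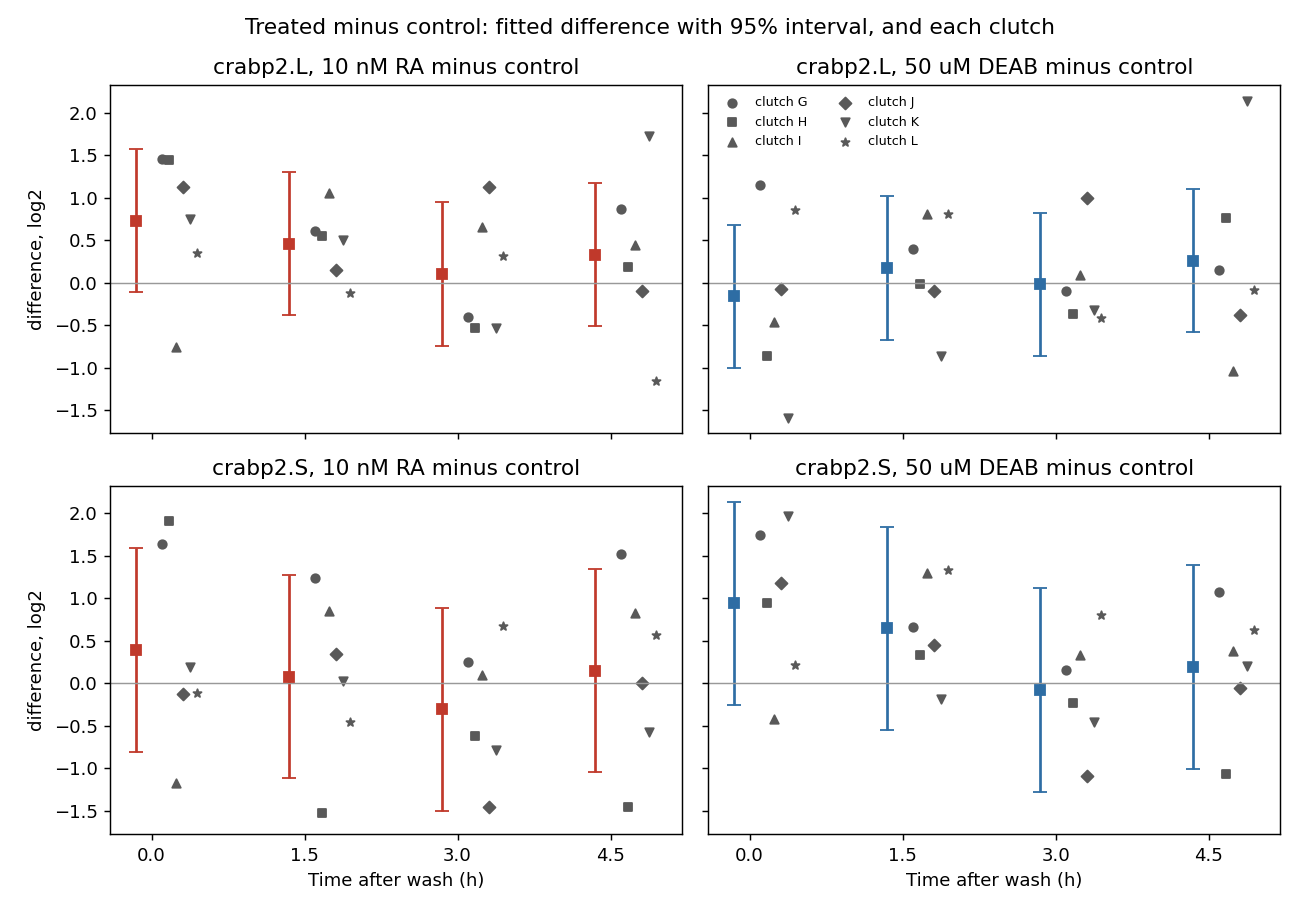
Difference from control on the log2 scale against time after the wash in hours, for RA (left) and DEAB (right), crabp2.L in the upper row and crabp2.S in the lower row. Squares with bars are the fitted difference and its 95% interval, grey symbols the single clutches; every interval includes 0.

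No change with time in the difference from control passed either. Limma's F test over the 3 changes since 0 h gave adjusted p = 0.957 for both homoeologs under RA and 0.966 for both under DEAB. Compared directly, crabp2.L was higher in RA than in DEAB embryos at 0 h by 0.89 (95% interval 0.05 to 1.73, unadjusted p = 0.0391, adjusted p = 0.0818), in 4 of 6 clutches, while the difference of crabp2.S was -0.55 (-1.75 to 0.65, adjusted p = 0.539), with 5 of 6 below 0. Of all target genes 43.5% were called between RA and DEAB at 0 h, 43.5% at 1.5 h and 30.4% at 3 h, with 0% at 4.5 h and 52.2% in the mean over time. In that mean crabp2.L differed by 0.34 (adjusted p = 0.181) and crabp2.S by -0.35 (adjusted p = 0.362), the lowest value of the 23 genes. With the mean of the other target genes as reference, which holds the genes RA raised, the crabp2.S mean was -1.06 (adjusted p = 1.07e-04). With this reference 18 of the 23 genes were called in that mean. With samples blocked by clutch and time, the 0 h difference of crabp2.L passed (adjusted p = 0.0241). At 4.5 h the count of 0 stood beside 4 genes at an unadjusted p under 0.05, and in RA minus control at 4.5 h beside 3.

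The homoeologs were then set against each other within each sample. crabp2.S had the higher Ct in 70 of 72 samples, with a median gap of 3.46 cycles. The gap is between assays with their own primers, so it describes these assays and is not tested as an amount of transcript. At 0 h it was between -1.14 and 6.41 cycles over the 18 samples (median 4.28), at 1.5 h between 3.20 and 6.13 (median 4.36), at 3 h between 2.45 and 5.02 (median 3.36), and at 4.5 h between -0.10 and 3.50 (median 2.51). The assays were thus farthest apart at the first time points and closest at the last. The exceptions with a lower Ct of crabp2.S were the 0 h DEAB embryos of clutch K (-1.14) and the 4.5 h control embryos of clutch H (-0.10).

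**Figure D3:**
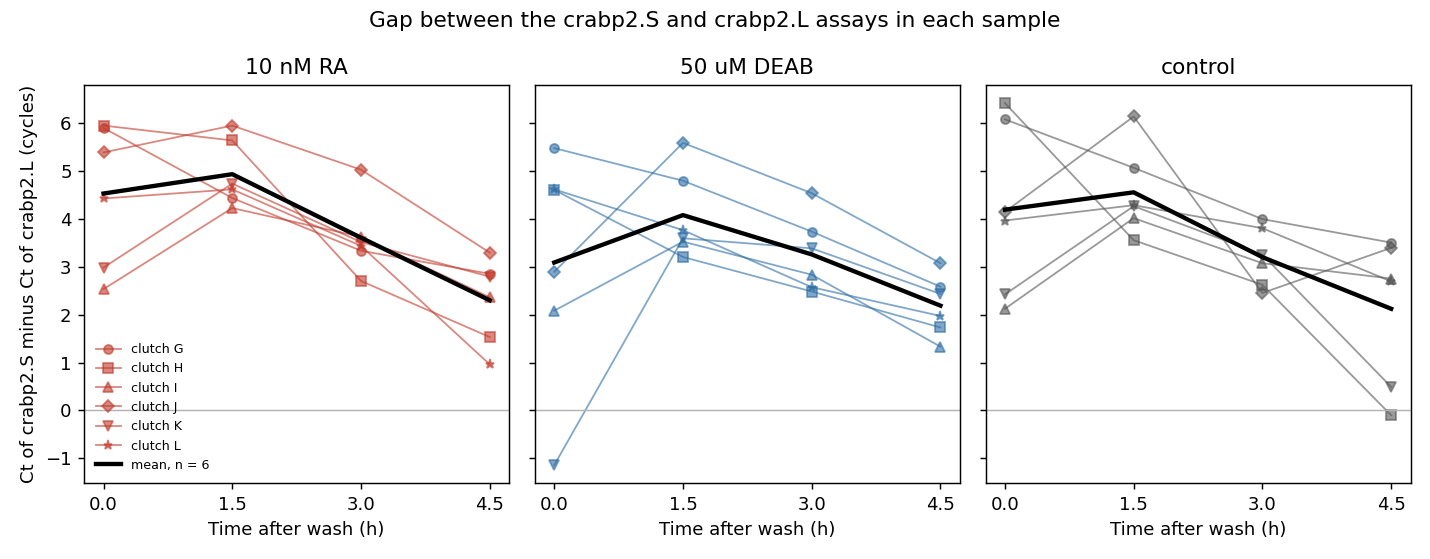
Ct of crabp2.S minus Ct of crabp2.L in cycles against time after the wash in hours, in RA, DEAB and control embryos. Thin lines join the samples of a clutch and the thick line is the mean of 6 clutches; from 1.5 to 4.5 h the gap narrowed in every clutch and treatment, while between 0 and 1.5 h clutches went both ways.

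The change of this gap with time is free of constant primer offsets and of gapdh. It is not free of unequal amplification efficiency, since assays that differ in efficiency give unequal Ct changes even for equal rises. Efficiency was not tested. The change was tested on the L minus S difference of the 5 homoeolog pairs in the panel. From 0 to 4.5 h crabp2.L rose less than crabp2.S by 2.23 in RA embryos (L minus S -2.23, SE 0.60, adjusted p over the 5 pairs = 7.75e-04), in 6 of 6 clutches (two-sided exact sign-flip p = 0.03125, the smallest that 6 clutches allow). In RA embryos of clutches I and K, L minus S was only -0.17 and -0.19, against -4.41 to -2.09 in the other clutches. In DEAB embryos L minus S was -0.90 (95% interval -2.11 to 0.31, adjusted p = 0.141), lower in 4 of 6 clutches (exact p = 0.5). In control embryos it was -2.07 (SE 0.60, adjusted p = 0.0018), lower in 5 of 6 (exact p = 0.0625). In each treatment 60% of the 5 pairs were called, so that unequal rises in these assays were common among homoeologs here. Clutch K decided the DEAB value, which was -1.65 (adjusted p = 0.00552) without its 0 h DEAB embryos and -1.79 (adjusted p = 0.00603) without the clutch. Without clutch H the control value was -1.18 (adjusted p = 0.0867). The difference between DEAB and control embryos in this change was 1.17 (-0.54 to 2.87, adjusted p = 0.441) and that between RA and control embryos was -0.16 (-1.86 to 1.54, adjusted p = 0.872).

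The gap narrowed after 1.5 h. From 1.5 to 4.5 h, a contrast chosen after the steps had been seen, crabp2.L rose by 2.93 and crabp2.S by 5.56 in RA embryos, by 3.15 and 5.04 in DEAB embryos, and by 3.06 and 5.49 in control embryos. L minus S was -2.63 in RA (-4.10 to -1.58 over the clutches, adjusted p = 2.43e-04), -1.89 in DEAB (-2.51 to -1.16, adjusted p = 0.00659) and -2.43 in control embryos (-3.77 to -1.26, adjusted p = 7.69e-04). It was below 0 in 6 of 6 clutches in each of the treatments (exact p = 0.03125 each). For this interval 40%, 60% and 60% of the 5 pairs were called in RA, DEAB and control embryos, and 73.9%, 78.3% and 73.9% of the 23 genes were called higher. On a linear scale, and only if both assays amplified perfectly, these values put the rise of crabp2.L at 0.162, 0.270 and 0.186 of that of crabp2.S in RA, DEAB and control embryos. With any 1 clutch left out they stayed called.

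Over the first step, in contrast, L minus S was 0.40 in RA (95% interval -0.80 to 1.61), 0.99 in DEAB (-0.22 to 2.19) and 0.36 in control embryos (-0.84 to 1.57), with none passing (adjusted p = 0.506, 0.206 and 0.551) and with 4, 3 and 4 of 6 clutches above 0. As shares of each homoeolog's own rise the values lay apart, short of the threshold once adjusted. At 1.5 h crabp2.L had completed a median of 51.1% of its 0 to 4.5 h change in RA embryos, 49.5% in DEAB embryos and 45.0% in control embryos. crabp2.S had completed 28.6%, 32.2% and 26.9%. The share of crabp2.L was above that of crabp2.S in 5, 6 and 6 of 6 clutches, by a mean of 19.5, 27.2 and 22.8 percentage points (exact two-sided sign-flip tests, p = 0.0625, 0.03125 and 0.03125, and adjusted p = 0.0938 for each over the 6 comparisons of this kind). Clutch K held 87.9 points in DEAB and 63.2 in control embryos, and without it the means were 15.1 and 14.8. In DEAB embryos of clutch K the crabp2.S share was -41.3%, since its level fell over the first step. The shares divide by the 0 to 4.5 h rise, which was larger on average for crabp2.S. They thus restate the steps and rises given above and are not a separate test. These shares were chosen after values had been seen.

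**Figure D4:**
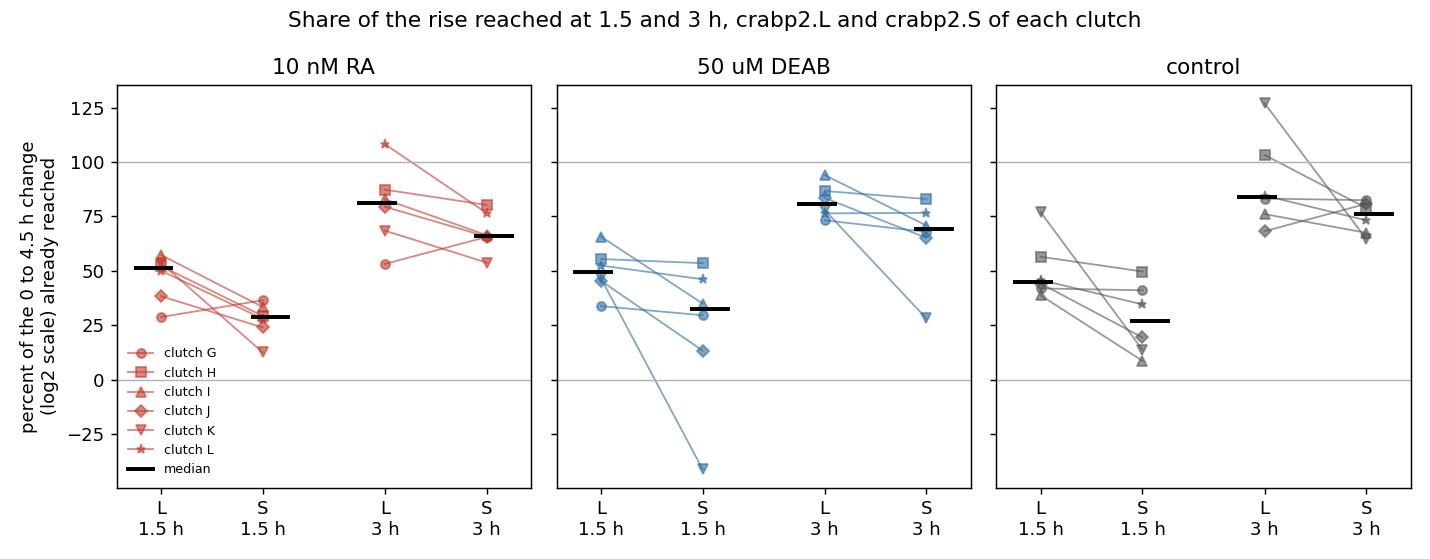
Percent of the 0 to 4.5 h change on the log2 scale that crabp2.L and crabp2.S had reached at 1.5 and 3 h, by clutch, in RA, DEAB and control embryos. Lines join the homoeologs of a clutch and bars are medians; at 1.5 h crabp2.L lay above crabp2.S in all but clutch G of the RA embryos.

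At 3 h the shares were closer. crabp2.L had reached a median of 81.2% in RA, 80.7% in DEAB and 83.9% in control embryos, and crabp2.S 66.1%, 69.4% and 76.0%. crabp2.L was ahead in 5 of 6 clutches in each treatment (exact p = 0.09375, 0.0625 and 0.2188, adjusted p = 0.1125, 0.09375 and 0.2188). The level at 4.5 h was below that at 3 h, which puts the share above the whole rise, for crabp2.L in clutch K (127%) and clutch H (103%) of the controls and in clutch L (108%) of the RA embryos.

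The response to treatment was compared between the homoeologs in the same way. Under RA, L minus S of the treated minus control difference was 0.34 at 0 h and 0.38 at 1.5 h, then 0.41 at 3 h and 0.18 at 4.5 h, and 0.32 on average (95% interval -0.28 to 0.93, adjusted p = 0.654). Under DEAB it was -1.10 at 0 h (-2.31 to 0.10), -0.47 at 1.5 h, then 0.06 at 3 h and 0.07 at 4.5 h, and -0.36 on average (-0.97 to 0.24, adjusted p = 0.899). The DEAB value at 1.5 h was below 0 in 6 of 6 clutches with little spread, from -0.67 in clutch K to -0.27 in clutch G (exact p = 0.03125), as was the DEAB average, from -0.55 in clutch I to -0.01 in clutch J (exact p = 0.03125). These exact p-values are unadjusted and the smallest that 6 clutches allow, and neither passed once adjusted over the 5 pairs. Limma, which pools the spread over all groups, called neither, and it called the 1.5 h value when only the samples compared were used (adjusted p = 0.0128).

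Between RA and DEAB embryos at 0 h lay the largest treatment difference between the homoeologs, with L minus S at 1.44 (95% interval 0.23 to 2.64, unadjusted p = 0.0201, adjusted p = 0.0537), above 0 in 5 of 6 clutches (exact p = 0.0625), where 0% of the 5 pairs were called and 2 had an unadjusted p under 0.05. The highest clutch value, 4.12, was that of clutch K, without which L minus S was 0.90. With samples blocked by clutch and time the 0 h value passed (adjusted p = 0.00947), as did the mean over the 4 times, which was 0.69 (adjusted p = 0.118 with clutch alone as the block, 0.0143 with clutch and time).

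Clutches differed most in crabp2.S and at 0 h. Averaged over the 3 treatments at 0 h, crabp2.S was -1.33 in clutch K and -3.42 in clutch I, while the other 4 clutches lay between -6.26 (clutch H) and -5.01 (clutch G). Clutch K had the highest and clutch I the second highest crabp2.S at 0 h in RA, in DEAB and in control embryos. The same clutches were not set apart by 4.5 h, where these means ran from 2.48 (clutch G) to 3.97 (clutch H). For crabp2.L the clutch means at 0 h ran from -5.09 (clutch J) to -2.74 (clutch G), with clutch I at -4.71. The SD of the 6 clutch means of crabp2.S was 1.85 at 0 h and 0.50 at 4.5 h, and that of crabp2.L was 0.90 and 0.66.

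Among the other genes of binding and transport in the panel, stra6.L (the retinol uptake receptor) had smaller differences with time than the crabp2 homoeologs. stra6.L rose relative to gapdh by 0.37 in RA embryos (adjusted p = 0.0226) and 0.39 in control embryos (adjusted p = 0.0161), with 0.14 in DEAB embryos (adjusted p = 0.36). With no reference gene it fell, at -1.26, -1.12 and -0.90 in RA, DEAB and control embryos (limma, adjusted p = 0.0015, 0.00385 and 0.0219). Its direction thus depended on whether Ct was corrected by gapdh, while both crabp2 homoeologs rose either way. Of the 4 genes of this list 4, 3 and 3 rose in RA, DEAB and control embryos relative to gapdh, with a median of 3.20, 3.49 and 3.15. With no reference gene 2 rose in RA embryos, and in DEAB and control embryos only the crabp2 homoeologs rose. Over all 23 genes 87%, 91.3% and 82.6% rose relative to gapdh. Relative to gapdh none of the 4 genes passed against control under RA or under DEAB, at any time. The mean of the other target genes, which holds the genes RA raised, was also used as reference. stra6.L was then lower in RA than in control embryos at 0 h (-0.47, limma, adjusted p = 0.0479) and 1.5 h (-0.95, adjusted p = 9.86e-05). With this reference 13 of the 23 genes were called at 0 h and 15 at 1.5 h.

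Among the 16 genes of RA metabolism, the homoeologs and the rest of this list included, 14 rose and 1 fell in RA embryos between 0 and 4.5 h, 14 rose and 1 fell in DEAB embryos, and 12 rose and 1 fell in control embryos, with medians of 2.00, 2.24 and 2.12. These counts stand beside 87%, 91.3% and 82.6% of all 23 genes called higher. crabp2.S ranked 1, 2 and 1 and crabp2.L ranked 4, 3 and 3 in this list. In RA minus control at 0 h, 3 of the 16 were called, all higher in RA embryos, against 26.1% of all 23 genes.

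The genes whose 12 group means followed crabp2.L most closely were aldh1a3.L (Pearson r = 0.98) and aldh1a2.L (r = 0.97), which encode retinaldehyde dehydrogenases, and rdh10.L (r = 0.98), which encodes a retinol dehydrogenase. The order depended on the measure, since by Spearman's rho aldh1a3.L and rdh10.L ranked 6 and aldh1a2.L 11, and with no reference gene the r of crabp2.L was 0.96 with aldh1a3.L, 0.93 with rdh10.L and 0.83 with aldh1a2.L, at ranks 1, 4 and 10. For crabp2.S they were rdh14.L (r = 0.99), whose enzyme preferentially reduces retinaldehyde, aldh1a3.L (r = 0.98) and the Hox gene hoxb4.S (r = 0.98). By Spearman's rho these ranked 4, 1 and 11 for crabp2.S. The homoeologs correlated with each other at r = 0.97, at rank 4 for crabp2.L and rank 5 for crabp2.S. All these series share gapdh, the clutches and a rise with time. Without a reference gene the r of crabp2.S was -0.58 with rdh14.L, against 0.98 with aldh1a3.L and 0.96 with hoxb4.S. Once group and clutch were removed, the deviations of crabp2.L and crabp2.S over the 72 samples correlated at r = 0.31, and those of crabp2.S and hoxb4.S at r = 0.58, the highest for crabp2.S. For the other named genes, crabp2.L was then at r = 0.38 with rdh10.L, 0.11 with aldh1a2.L and 0.087 with aldh1a3.L. crabp2.S was at 0.19 with aldh1a3.L and 0.13 with rdh14.L, so relative to gapdh most of these likenesses lay in the group means. With no reference gene the deviations correlated more. For crabp2.L, r was 0.50 with rdh10.L, 0.45 with aldh1a2.L and 0.33 with aldh1a3.L. For crabp2.S it was 0.30 with aldh1a3.L and 0.29 with rdh14.L.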

How the data were processed

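The 72 samples were whole X. laevis embryos, with 6 clutches in each of 12 groups. Per the methods, primer pools were used to preamplify the cDNA before microfluidic PCR read by EvaGreen dye. The authors deposited Ct values, the median of 3 preamplifications with L, S or all primers, and log2 relative expression. All 1709 deposited log2 values equalled the Ct of gapdh minus that of the gene minus its median over the 72 samples, within 0.001. A single reference gene moves every target alike, and unequal amplification efficiency stretches differences. The primers' specificity for L or S was not checked here. Missing values (19) all belonged to hoxd3.L. All 24 gene IDs matched RefSeq (Xenopus_laevis_v10.1), used for names and neighbours only, since no build was named, and sequences were not used here. The ID of gapdh is that of gapdh.S.

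Groups and clutches came from the sample titles. Tests used limma 3.58.1 in R 4.3.3 (lmFit and eBayes, all 72 samples, 12 groups, clutch as a fixed block, Benjamini-Hochberg over 23 genes or 5 pairs). Samples with the same clutch letter are siblings from 1 fertilization and so are paired. Their deviations from the group means had a mean correlation of 0.41, against -0.09 for samples of different clutches. Exact sign-flip tests used 64 sign assignments. The scripts were tested on simulated data. The members, lists and alternatives were chosen with earlier results of these data known. Named genes were the homoeologs, the other genes of binding and transport and the 3 genes closest to each homoeolog over the group means. Some panel genes, 1 of those under this rule included, are in every fit and count but are not reported here. Alternatives were other blocks, references, sample sets and tests, and each clutch left out. Plots were drawn with matplotlib 3.10.9.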

Additional observations from a re-analysis of the deposited data

How the results depend on the processing

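None of the 34 called changes of crabp2.L, crabp2.S or their difference turned direction under any alternative. With each clutch in each group, other blocks and tests leave the size of a change as it was. Only the other references and the left-out samples or clutches could turn a direction. The called changes include those from 1.5 to 4.5 h, chosen after the steps had been seen. Leaving aside the sign-flip test, 450 of 467 alternative values of these results stayed past the threshold. The sign-flip test, whose p cannot go below 0.03125, lost 21 of the 34 calls after adjustment. Among the changes over 3 or 4.5 h it gave adjusted p = 0.0513 for the 1.5 to 4.5 h rises in RA embryos of crabp2.L (2.93) and crabp2.S (5.56), and for L minus S 0.0781 from 0 to 4.5 h (-2.23) and 0.156 from 1.5 to 4.5 h (-2.63) in RA, and 0.104 from 0 to 4.5 h (-2.07) and 0.0521 from 1.5 to 4.5 h (-2.43) in control embryos. With only the samples compared, the control L minus S change from 0 to 4.5 h was -2.07 (adjusted p = 0.055) and the 0 to 1.5 h rise of crabp2.S in DEAB embryos also lost its call (adjusted p = 0.0856). The DEAB minus control L minus S at 1.5 h passed (-0.47, adjusted p = 0.0128), as did the L minus S steps from 1.5 to 3 h in all treatments and from 3 to 4.5 h in RA (adjusted p = 0.00315) and DEAB embryos (adjusted p = 9.37e-05).

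The clutch letters pair the samples. With a replicate block by time, 4 results passed that had not, namely the RA minus control mean of crabp2.L (0.40, adjusted p = 0.0404), RA minus DEAB at 0 h of crabp2.L (0.89, adjusted p = 0.0241), and L minus S of RA minus DEAB at 0 h (1.44, adjusted p = 0.00947) and in the mean (0.69, adjusted p = 0.0143). With no replicate block the 3 to 4.5 h rise of crabp2.L in RA embryos (1.06) lost its call (adjusted p = 0.052), and no other call changed.

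Some results that had not passed turned sign. With the mean of the other target genes as reference, RA minus control was -0.23 for crabp2.S at 0 h, -0.57 for crabp2.L and -0.94 for crabp2.S at 1.5 h, -0.36 for crabp2.L at 3 h, -0.17 for crabp2.L and -0.34 for crabp2.S at 4.5 h, and -0.25 for crabp2.L and -0.57 for crabp2.S (adjusted p = 0.0327) in the mean. DEAB minus control at 3 h was 0.093 for crabp2.L and 0.036 for crabp2.S. RA minus DEAB of crabp2.L was -0.75 at 1.5 h, -0.46 at 3 h, -0.41 at 4.5 h and -0.38 in the mean. That of crabp2.S kept its sign and passed at 0 h (-1.32, adjusted p = 0.0165), at 1.5 h (-1.61, adjusted p = 0.00346) and in the mean (-1.06, adjusted p = 1.07e-04). Of the 23 genes 17, 15 and 18 were called in these comparisons with this reference, and 18 in the RA minus control mean. This reference also lost the first step of crabp2.S in RA and DEAB embryos, the 1.5 to 3 h step of crabp2.L in DEAB and control embryos and its last step in RA (0.26) and DEAB embryos (0.22). It holds genes that themselves rose in these steps. With no reference gene, RA minus control of crabp2.S at 1.5 h was -0.028, RA minus DEAB of crabp2.L at 4.5 h was -0.25, and the r of crabp2.S with rdh14.L was -0.58. Under both other references 2 of the 4 binding and transport genes rose in RA embryos, against 4 with gapdh.

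Without the 0 h DEAB embryos of clutch K, RA minus DEAB of crabp2.S at 0 h was 0.094 and L minus S from 0 to 4.5 h in DEAB embryos was -1.65 (adjusted p = 0.00552). Leaving out each clutch gave for this L minus S change -1.79 to -0.50 in DEAB and -2.61 to -1.18 in control embryos, 0.60 to 1.17 for RA minus DEAB at 0 h of crabp2.L and 0.90 to 1.76 for its L minus S. RA minus control ranged from -0.15 to 0.40 at 1.5 h, -0.12 to 0.47 at 4.5 h and -0.14 to 0.18 in the mean for crabp2.S, and from -0.10 to 0.23 at 3 h for crabp2.L. DEAB minus control ranged from -0.42 to 0.12 at 0 h, -0.22 to 0.058 at 3 h, -0.12 to 0.52 at 4.5 h and -0.006 to 0.10 in the mean for crabp2.L, and from -0.26 to 0.12 at 3 h for crabp2.S. RA minus DEAB at 4.5 h ranged from -0.21 to 0.30 for crabp2.L, -0.14 to 0.10 for crabp2.S and -0.072 to 0.34 for L minus S. L minus S of RA minus control ranged from -0.028 to 0.62 at 3 h and -0.25 to 0.56 at 4.5 h, and of DEAB minus control from -0.35 to 0.31 at 3 h and -0.31 to 0.36 at 4.5 h. The cause of these changes was not tested.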
